A study of Mus musculus with 18 samples.

Results

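The integrated stress response was followed after axotomy through 10 genes: Atf4 itself, the related factors Atf5 and Ddit3, and Chac1, Trib3, Asns, Psat1, Phgdh, Sesn2 and Ddit4, which are known targets of Atf4. They were taken by gene symbol from the 47643 genes of the deposited count tables, and all 10 were among the 13771 genes that were tested, those above 1 CPM (the counts of a gene scaled to the library's counts on genes) in at least 3 libraries. RNA was sequenced from embryonic dorsal root ganglion (eDRG) spot cultures of CD-1 mice, taken at e13.5 and grown for 7 days in vitro (DIV7) with the mitotic inhibitor FDU, which all groups received. Control cultures were not injured and were collected at DIV7. The axons of the other cultures were cut with a blade at DIV7. These cultures were collected 1, 3, 8, 16 or 24 h later (hours post injury, HPI). Cultures at later hours were thus older than control, and no uninjured cultures of the same ages are described. Hours after injury and hours in culture therefore cannot be told apart. Each of the 6 time points, control included, had 3 replicates, 18 libraries in all. The labels do not say whether replicates were separate cultures or litters, so p-values measure the spread between these samples, which may be technical in part.

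In the integrated stress response, kinases that sense misfolded protein, missing amino acids, heme deficit or viral RNA phosphorylate the translation factor eIF2, which slows protein synthesis in general while the mRNA of Atf4 is translated more. The Atf4 protein, a bZIP transcription factor, pairs with C/EBP factors and switches on genes of amino acid synthesis and transport, of the redox balance and, where stress lasts, of cell death. Atf4 is controlled largely by translation, so its mRNA is only one side of its activity. In neurons the pathway is known from axon injury, where signals from the cut axon reach the cell body.

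Genes driven by Atf4 often carry a C/EBP-ATF response element, written here as TGATGNAA. These letters were searched on both strands of the RefSeq promoter windows of GRCm38.p6, from 250 bases before to 50 bases after each start site, and so were the letters of the cAMP response element, TGACGTCA, which do not contain TGATGNAA. The windows of all 10 genes were found, and Chac1, Trib3 and Asns held a TGATGNAA match, against 3.97% of 32851 windows and 4.51% of 27025 genes. None of the 10 genes held TGACGTCA, which 1.79% of windows did. The 3 stretches are shown because they hold the matches, with the matched letters in capitals, each read in the direction of its gene.
Chac1 (chr2:119351003-119351102, plus strand): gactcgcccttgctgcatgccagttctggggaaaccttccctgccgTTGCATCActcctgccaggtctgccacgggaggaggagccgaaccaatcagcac
Trib3 (chr2:152344031-152344130, minus strand): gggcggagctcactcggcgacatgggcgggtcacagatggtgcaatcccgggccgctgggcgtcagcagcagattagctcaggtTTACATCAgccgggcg
Asns (chr6:7693225-7693324, minus strand): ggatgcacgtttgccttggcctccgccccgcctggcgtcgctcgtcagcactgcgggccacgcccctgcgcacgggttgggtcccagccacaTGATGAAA
In Chac1 the match lay on the other strand, 193 bases before the RefSeq start site. In Trib3 it also lay on the other strand and began 14 bases after that start, but before the start that GENCODE gives, which lies 28 bases further downstream. In Asns the letters read as printed, 23 bases before the RefSeq start and after the start that GENCODE gives, which lies 45 bases further upstream. A match is a description of the letters and not a measured binding site, and its absence elsewhere says only that these letters are not in those windows.

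The libraries held between 9478891 counts on genes (8 HPI replicate 2) and 23082327 (3 HPI replicate 2), and no pair of libraries was identical. Between 25.2% and 33.2% of all counts were listed under 5 entries that are no genes. A list of residual ribosomal RNA genes took 13.8% to 24.1% of the counts on genes, with the highest share in 16 HPI replicate 1. This list included mitochondrial rRNA genes and Lars2. Defining markers fitted cultures of neurons: 9 sensory neuron genes summed to between 8034 and 10125 CPM in every library, 14 genes of satellite glia and Schwann cells to between 73.2 and 140.3 CPM, most of it from S100b, and 4 endothelial genes to at most 1.46 CPM. These bulk values cannot tell fewer cells that express a gene from less RNA per cell. Replicate 1 gave the lowest CPM at all 6 time points for 8 of the 10 genes (80.0%), against 1985 of the 13771 genes tested (14.4%). The study's methods correct for a batch but do not say what it was. The labels do not say what libraries of the same replicate number share. Comparisons were made in a model with the replicate number as a block, because same-numbered libraries deviated together from their group means. A replicate's own control means the control library with the same number. Values without the block are given beside many of the calls, but not beside all, and not for the genes most like a member.

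In the control libraries the 10 genes differed widely in level. As CPM per kilobase of exon (RPKM), Asns, which makes asparagine, had 175 ± 13.6 (SD, n = 3) and Atf4 169 ± 29.7. They were followed by the serine synthesis enzymes Psat1 with 97.8 ± 19.0 RPKM and Phgdh with 88.1 ± 27.6 RPKM. Chac1, Atf5 and Ddit3 stood at 53.3 ± 10.2, 48.9 ± 4.81 and 32.7 ± 10.2 RPKM. The lowest levels were those of Ddit4 with 28.0 ± 9.37 RPKM, Sesn2 with 11.7 ± 3.85 RPKM and Trib3 with 4.999 ± 1.14 RPKM. The ranges of the 3 libraries overlapped between the neighbours Asns and Atf4, Psat1 and Phgdh, Phgdh and Chac1, Chac1 and Atf5, and Ddit3 and Ddit4. They did not overlap between Atf4 and Psat1, Atf5 and Ddit3, Ddit4 and Sesn2, or Sesn2 and Trib3. With the longest transcript as the length, Ddit3 had 57.7 ± 18.1 RPKM and moved from rank 7 to rank 5, and Chac1 from rank 5 to rank 7. The highest control library was 1.99 times the lowest for Sesn2, 1.94 for Phgdh, 1.92 for Ddit3 and 1.91 for Ddit4, and 1.17 times for Asns.

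**Figure D1:**
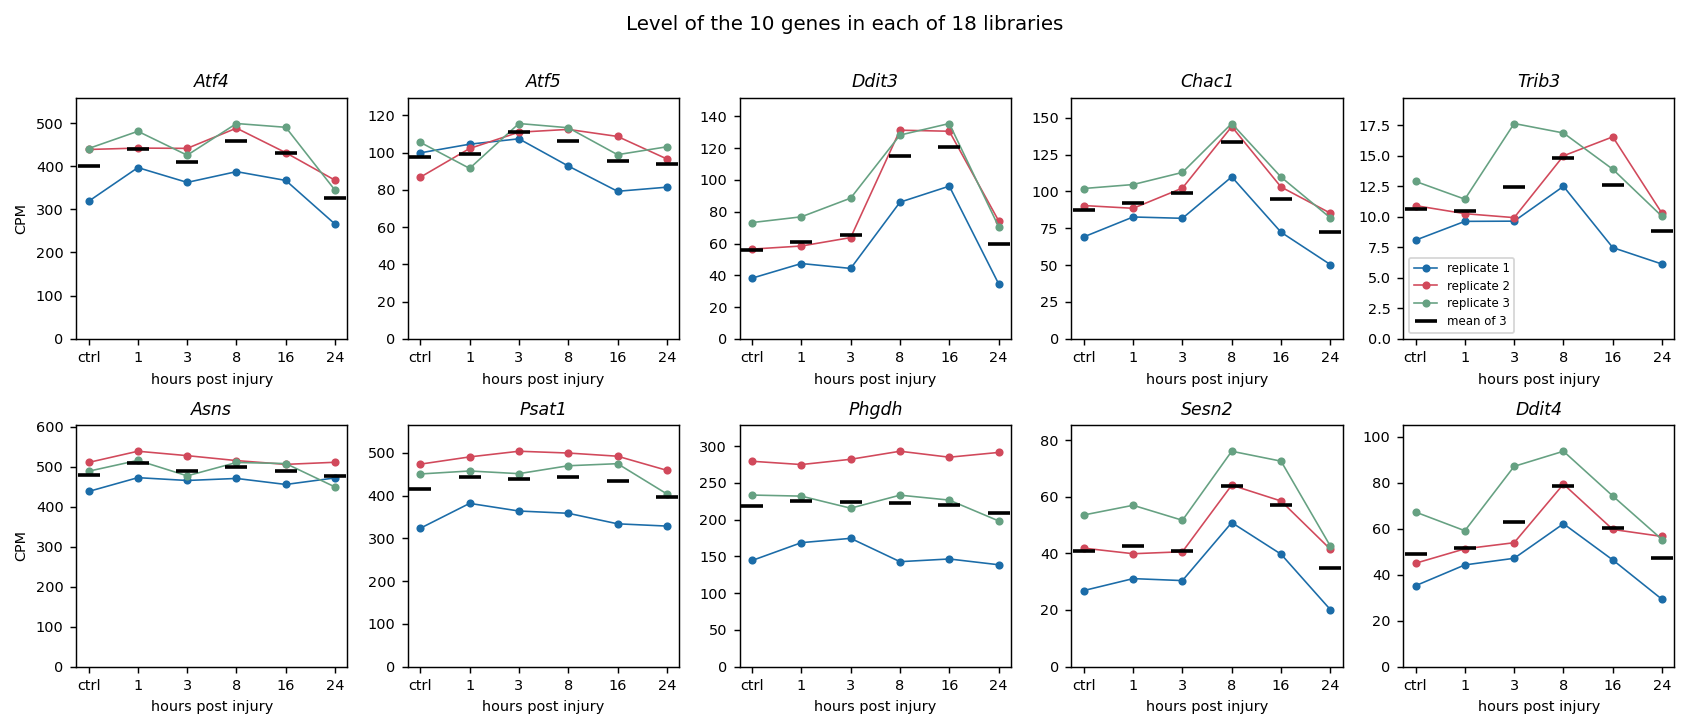
Level of the 10 genes in CPM (vertical axis, from 0) in control cultures and in injured cultures (horizontal axis, in hours post injury, not to scale). Points are single libraries joined by replicate number, and black bars are the means of 3; Ddit3 was above control in all 3 libraries at 8 and 16 HPI, and Chac1 had its highest level in all 3 replicates at 8 HPI.

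The first question was how early the response could be seen. At 1 and 3 HPI no member passed the quasi-likelihood test of edgeR, adjusted after Benjamini and Hochberg over all genes tested, and the DESeq2 Wald test called none either. Of all genes tested, 0.276% passed in either direction at 1 HPI and 0.189% at 3 HPI. At an unadjusted p under 0.05 there was 1 member at 1 HPI (Atf4) and there were 3 at 3 HPI (Ddit4, Chac1 and Atf5), where 12.8% and 14.5% of all genes tested had one. The median log2 fold change of the 10 genes was 0.08 at 1 HPI and 0.13 at 3 HPI. The largest value at 3 HPI was that of Ddit4, at 0.34 with a 95% interval of 0.12 to 0.56 and an adjusted p of 0.147. The intervals for Ddit3 were -0.11 to 0.36 at 1 HPI and -0.02 to 0.45 at 3 HPI, so a 2-fold rise lay outside both.

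At 8 HPI, 5 of the 10 genes rose against control (Ddit3, Ddit4, Sesn2, Chac1 and Atf4) and none fell, where 3.78% of all genes tested rose and 3.9% fell. Their median log2 fold change was 0.35, that of all genes tested was within 0.005 of 0, and all 10 signs were positive. Ddit3 alone among them also passed 2-fold, as 0.254% of all genes did upward. The members were chosen with earlier results of these data known, so these counts describe them and support nothing further. The 5 comparisons with control all share the same 3 control libraries.

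Ddit3, which encodes the transcription factor CHOP, had the largest change. Its control libraries stood at 38.2, 56.5 and 73.2 CPM in replicates 1, 2 and 3, and its 8 HPI libraries at 86.0, 131 and 128 CPM. Every injured library was above every control library, and each was above the control of its own replicate number. The log2 fold change was 1.06 ± 0.11 (SE), or 2.09-fold, with an adjusted p of 3.36e-06 in edgeR's quasi-likelihood test, and the within-replicate values were 1.20, 1.20 and 0.81. Without the replicate block the log2 fold change was 1.05 and the adjusted p 0.138. Ddit3 (ENSMUSG00000025408.15, chr10:127290774-127296288 of GRCm38, plus strand) overlaps exons of Mars on the opposite strand, and the sources used here do not say whether counting used strand. At 8 HPI Mars had -0.04 on the log2 scale (adjusted p 0.680 in edgeR's test).

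Chac1 breaks down glutathione and lowers the redox reserve of the cell. It stood at 69.2, 90.4 and 102 CPM in control and at 109.9, 144 and 146 CPM at 8 HPI, again without overlap between the groups. The log2 fold change was 0.62 ± 0.06 with an adjusted p of 2.70e-06 in edgeR's test, close in all 3 replicates (0.70, 0.66 and 0.52). Without the block the adjusted p was 0.148. Chac1 (ENSMUSG00000027313.3, chr2:119351229-119354381, plus strand) is the gene with the TGATGNAA match furthest upstream of those printed above.

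Sesn2 and Ddit4 both restrain the growth kinase mTORC1. Sesn2, which also senses leucine, stood at 26.9, 41.9 and 53.6 CPM in control and at 50.9, 64.1 and 76.1 CPM at 8 HPI. Ddit4, also known as Redd1, stood at 35.2, 44.995 and 67.3 CPM in control and at 62.2, 79.4 and 93.8 CPM at 8 HPI. The groups overlapped for both genes, while each replicate rose against its own control. Sesn2 changed by 0.68 ± 0.09 on the log2 scale (adjusted p 4.35e-05) and Ddit4 by 0.70 ± 0.11 (adjusted p 0.000375), both in edgeR's test. Without the block the adjusted p was 0.508 for Sesn2 and 0.392 for Ddit4. Sesn2 (ENSMUSG00000028893.8) lies at chr4:132492032-132510501 and Ddit4 (ENSMUSG00000020108.3) at chr10:59949669-59951834, both on the minus strand.

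The mRNA of Atf4 rose too, with a smaller change. Atf4 (ENSMUSG00000042406.7) lies at chr15:80255184-80257541 on the plus strand. Its libraries stood at 319, 439 and 441 CPM in control and at 387, 488 and 499 CPM at 8 HPI, and the groups overlapped. The log2 fold change was 0.21 ± 0.06 with an adjusted p of 0.0290 in edgeR's test, and all 3 replicates were higher than their own control, by 0.31, 0.14 and 0.18. Its 95% interval of 0.09 to 0.33 lay below the intervals of Ddit3, Chac1, Sesn2 and Ddit4, of which the lowest bound was 0.48. This call did not hold without control replicate 1 (0.15, adjusted p 0.174) or replicate 3 (0.22, adjusted p 0.0716). Nor did it hold without 8 HPI replicate 1 (0.21, adjusted p 0.0823), replicate 2 (0.20, adjusted p 0.0765) or replicate 3 (0.21, adjusted p 0.0926), with the 2 groups fitted alone (adjusted p 0.0608), or without the block (adjusted p 0.707).

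Trib3 (ENSMUSG00000032715.9, chr2:152337422-152344032, minus strand), a pseudokinase that holds Atf4 in check, was low at 8.08, 10.9 and 12.9 CPM in control and at 12.5, 15.0 and 16.8 CPM at 8 HPI. Its change of 0.49 ± 0.15 on the log2 scale had an adjusted p of 0.0524 in edgeR's test, just above the threshold, with all 3 replicates above their own control. The adjusted p fell below 0.05 in 4 of 14 alternatives, among them the DESeq2 Wald test (0.0335) and the 2 groups fitted alone (0.0250). In the others that kept the block it reached up to 0.205, and it was 0.634 without the block. The call for Trib3 thus depends on the setting, and most alternatives did not give it.

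None of the 3 enzymes of amino acid synthesis passed the test at 8 HPI. Asns stood at 438, 510.3 and 488 CPM in control and at 470.3, 515 and 510.2 CPM at 8 HPI. Its change of 0.07 on the log2 scale had a 95% interval of -0.05 to 0.18. Psat1, which carries out the transamination in serine synthesis, had 0.10 with an interval of 0.00 to 0.20, and Phgdh, which takes the first step from glycolysis, 0.02 with an interval of -0.10 to 0.15. Asns (ENSMUSG00000029752.12, chr6:7675169-7693254), Psat1 (ENSMUSG00000024640.9, chr19:15904678-15947337) and Phgdh (ENSMUSG00000053398.11, chr3:98313170-98339990) all lie on the minus strand. A pseudogene copy of Phgdh held 197 counts over the 18 libraries, against 70914 on Phgdh. A change as large as that of Chac1 or Sesn2 at 8 HPI lay outside all 3 intervals. Atf5, a bZIP factor that is also controlled by translation, had 0.12 with an interval of -0.04 to 0.28. Atf5 (ENSMUSG00000038539.15, chr7:44812256-44816658, minus strand) overlaps exons of Nup62 on the opposite strand, with 32726 counts on Atf5 and 21557 on Nup62 over the 18 libraries. None of these 4 genes passed the test in any of the 8 comparisons made.

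**Figure D2:**
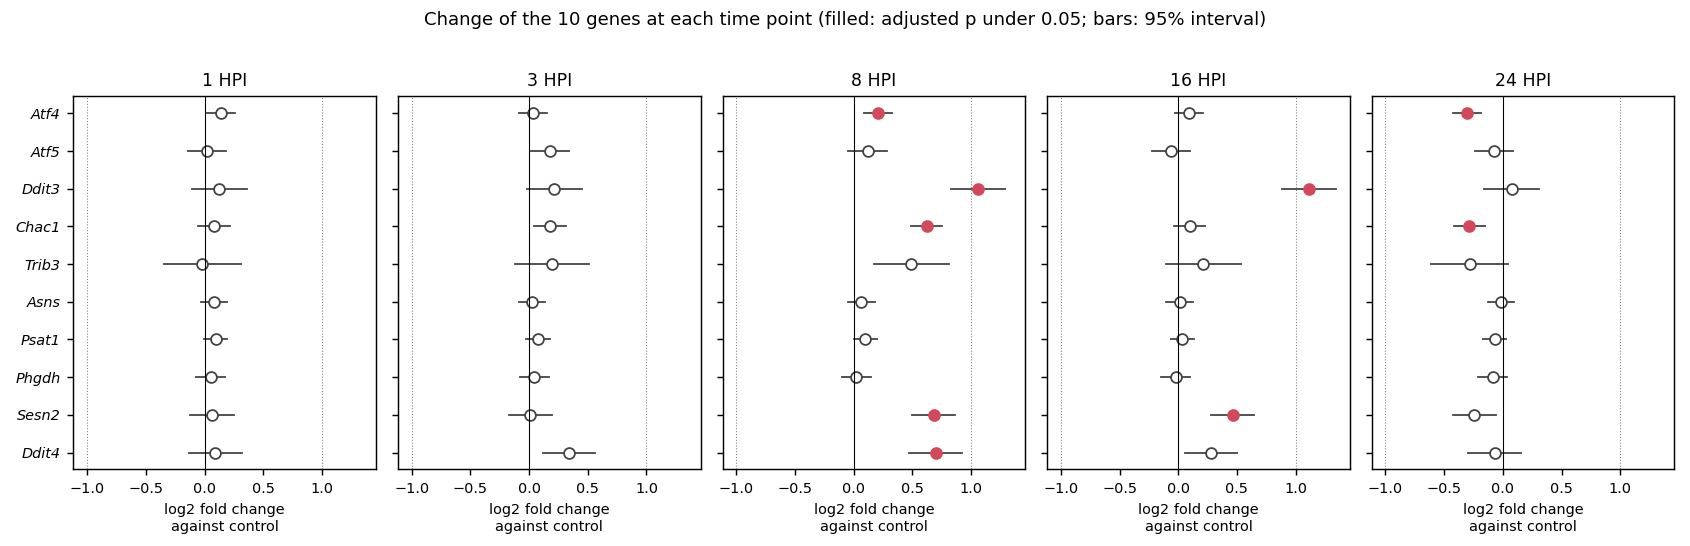
Log2 fold change of the 10 genes against control (horizontal axis) at 1, 3, 8, 16 and 24 HPI, with 95% intervals as bars, adjusted p under 0.05 as filled points and a 2-fold change as dotted lines. Filled points lie to the right for 5 genes at 8 HPI and for Ddit3 and Sesn2 at 16 HPI, and to the left for Atf4 and Chac1 at 24 HPI.

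The next question was how long these levels lasted. At 16 HPI, 2 of the 10 genes stood above control, Ddit3 and Sesn2, and none below, where 10.7% of all genes tested had risen and 11.5% had fallen. A count of 2 of 10 is close to that share. Ddit3 was again the only one past 2-fold, against 1.18% of all genes upward. The median log2 fold change of the 10 genes was 0.09.

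Ddit3 stood at 96.1, 131 and 136 CPM at 16 HPI, above every control library. Its log2 fold change was 1.11 ± 0.11 with an adjusted p of 5.05e-07 in edgeR's test, and the call also held without the block (adjusted p 0.0312). Without 16 HPI replicate 1, the library with the highest share of residual ribosomal RNA, it was 0.99, just under 2-fold. Sesn2 stood at 39.7, 58.5 and 72.6 CPM, with 0.46 ± 0.09 and an adjusted p of 0.000529, which became 0.441 without the block. Ddit4 had 0.28 with an adjusted p of 0.0696, which passed in 5 of 14 alternatives. It became 0.0365 without control replicate 3, its highest control library, but was up to 0.227 in others that kept the block and 0.669 without the block. Mars, on the other strand of Ddit3, had -0.12 (adjusted p 0.0652).

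From 8 to 16 HPI the 5 genes that had risen took steps between -0.53 and 0.05 on the log2 scale. Chac1 returned to 72.3, 103 and 109.8 CPM, a step of -0.53 ± 0.06 on the log2 scale with an adjusted p of 1.87e-05 in edgeR's test, and the libraries of the 2 time points did not overlap. Ddit4 returned to 46.4, 59.7 and 74.3 CPM, a step of -0.42 ± 0.11 with an adjusted p of 0.00996. These 2 fell, where 7.86% of all genes tested did. Ddit3 had a step of 0.05 with a 95% interval of -0.17 to 0.28, and Atf4 one of -0.12 with an adjusted p of 0.169. Sesn2 had a step of -0.22 with an adjusted p of 0.0946. It passed in 1 of 14 alternatives, with the 2 groups fitted alone (0.0338). The call for Ddit4 did not hold without 8 HPI replicate 1 (-0.37, adjusted p 0.0589) or 16 HPI replicate 3 (-0.37, adjusted p 0.0539), and neither step held without the block (adjusted p 0.138 for Chac1 and 0.521 for Ddit4). Trib3 and Atf5 were higher in 16 HPI replicate 2 than in the other 16 HPI libraries, and without that library 4 members fell. Trib3 then had -0.51 (adjusted p 0.0300) and Atf5 -0.26 (adjusted p 0.0455). In all, Trib3 passed this step in 1 of 14 alternatives and Atf5 in 2.

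The same kind of step was taken from 3 to 8 HPI. Ddit3 rose by 0.85 ± 0.11 (adjusted p 5.67e-05), Sesn2 by 0.67 ± 0.09 (adjusted p 6.02e-05) and Chac1 by 0.45 ± 0.06 (adjusted p 0.000224) in edgeR's test, 3 of the 10 genes where 1.74% of all genes rose. Ddit4 had 0.36 with an adjusted p of 0.0799, and its replicate 3 stood at 87.2 CPM at 3 HPI against 47.1 and 53.9 in the others. Without that library its step was 0.50, with an adjusted p of 0.0164. The step of Ddit4 passed in 3 of 14 alternatives, and its adjusted p was up to 0.314 in others that kept the block. Without the block none of the steps passed (adjusted p 0.503 for Ddit3, 0.838 for Sesn2 and 0.665 for Chac1).

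From 16 to 24 HPI, 6 of the 10 genes fell and none rose, where 6.22% of all genes tested fell. Ddit3 went from 96.1, 131 and 136 CPM to 34.7, 74.4 and 70.7 CPM, with no overlap between the time points and a log2 step of -1.04 ± 0.11 (adjusted p 5.56e-06 in edgeR's test). Sesn2 fell to 20.1, 41.5 and 42.6 CPM, a step of -0.71 ± 0.09 (adjusted p 2.95e-05). Atf4 fell by 0.39 (adjusted p 0.000151) and Chac1 fell by 0.38 (adjusted p 0.000635). These 4 genes were lower in 3 of 3 replicates and passed under every alternative that kept the block, and without the block none did (adjusted p 0.122 for Ddit3, 0.378 for Sesn2, 0.175 for Atf4 and 0.445 for Chac1).

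Trib3 and Ddit4 passed by less in the same step. Without the block the adjusted p was 0.540 for Trib3 and 0.765 for Ddit4. Trib3 had -0.50 ± 0.16 (adjusted p 0.0466, and 0.0504 with upper-quartile factors), and without 16 HPI replicate 2, its highest library of that time point, it had -0.25 (adjusted p 0.372). Leaving out 24 HPI replicate 1 or 3 gave Trib3 an adjusted p of 0.139 or 0.179. Ddit4 had -0.35 ± 0.11 (adjusted p 0.0430), and without 24 HPI replicate 1 it had -0.24 (adjusted p 0.217). The adjusted p of Ddit4 was 0.198 without 24 HPI replicate 3, and 0.186, 0.0736 and 0.0541 without 16 HPI replicates 1, 2 and 3.

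At 24 HPI the calls against control were downward. None of the 10 genes stood above control, and Atf4 and Chac1 stood below it, where 5.99% of all genes tested had risen and 9.03% had fallen. A count of 2 of 10 is not far from that last share. Neither edgeR's quasi-likelihood test nor the DESeq2 Wald test called a member higher, and 3 members had an unadjusted p under 0.05, namely Atf4, Chac1 and Sesn2, which had -0.24 on the log2 scale, beside 28.6% of all genes tested. The median log2 fold change of the 10 genes was -0.08, and 1 of 10 signs was positive.

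Atf4 stood at 266, 367 and 344 CPM at 24 HPI against 319, 439 and 441 CPM in control. It was lower than its own control in all 3 replicates, by -0.23, -0.33 and -0.35 on the log2 scale, although the groups overlapped. The log2 fold change was -0.30 ± 0.06 with an adjusted p of 0.00113 in edgeR's test, and 0.248 without the block. Chac1 stood at 50.4, 85.3 and 82.1 CPM, with -0.29 ± 0.07 and an adjusted p of 0.00486, and 0.535 without the block. Sesn2 had an adjusted p of 0.0737, which passed in 2 of 14 alternatives, among them the fit without 24 HPI replicate 2 (0.0105). It was up to 0.326 in others that kept the block, and 0.808 without the block.

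Ddit3 and Ddit4 were back near control. Ddit3 had 0.08 on the log2 scale with a 95% interval of -0.16 to 0.31, and Ddit4 one of -0.07 with an interval of -0.30 to 0.16. The intervals of Asns (-0.13 to 0.10), Psat1 (-0.17 to 0.03) and Phgdh (-0.21 to 0.03) at 24 HPI all spanned 0.

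Markers of other cells were read beside these falls. At 24 HPI the satellite glia and Schwann cell list summed to 87.5 to 120.0 CPM, against 99.1 to 133 CPM in control, with Mag at no more than 3 counts in any library of either time point. Of its 14 genes 6 were tested, and S100b fell, by -0.26 at 24 HPI and -0.33 at 16 HPI. No other gene of the list passed, and its median log2 fold change was upward, at 0.76 at 24 HPI and 0.25 at 16 HPI. The summed CPM, mostly S100b, thus does not stand for the whole list. The 5 neural crest and progenitor genes summed to 744 to 927 CPM at 24 HPI against 556 to 812 CPM in control, nearly all of it Vim, and both tested genes, Vim and Nes, rose. The 9 sensory neuron genes summed to 8345 to 8928 CPM at 24 HPI and to 9301 to 9695 CPM in control, with 2 genes higher and 3 lower. The 6 fibroblast genes summed to at most 19.5 CPM and the 5 myeloid genes to at most 7.17 CPM in any library, with 1 gene of each list higher at 16 and at 24 HPI. No glial, progenitor, myeloid or neuronal gene, S100b, Vim and Nes included, passed at 16 or 24 HPI without the replicate block. At 8 HPI no glial, progenitor, fibroblast or neuronal marker passed edgeR's test or the DESeq2 Wald test, and none had an unadjusted p under 0.05. Of 2 tested myeloid genes none passed either test, and 1 had an unadjusted p under 0.05. In edgeR's test 1 of 3 tested genes of cell division rose, which the DESeq2 Wald test did not call. The part of these lists in the changes of the 10 genes was not tested.

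The pathway around the 10 genes was read from 11 lists of 116 genes, of which 111 were tested. At 1 and 3 HPI none passed edgeR's test, with 17 and 11 of the 111 at an unadjusted p under 0.05, beside the 12.8% and 14.5% of all genes tested, and 1 called by the DESeq2 Wald test, at 3 HPI. At 8 HPI 30 rose and none fell, at 16 HPI 28 rose and 7 fell, and at 24 HPI 8 rose and 23 fell. The shares of all genes tested to read these and the counts of single lists against were 3.78% higher and 3.9% lower at 8 HPI, 10.7% and 11.5% at 16 HPI, and 5.99% and 9.03% at 24 HPI. From 16 to 24 HPI 35 fell and 1 rose, where 6.22% of all genes fell. Without the block 5 rose at 8 HPI, 7 rose at 16 HPI, and 1 rose and 1 fell at 24 HPI. From 16 to 24 HPI 6 fell and 0 rose without it.

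Upstream of Atf4, 2 of 16 kinase, eIF2 and eIF2B genes rose at 8 HPI, 1 rose at 16 HPI, and 2 rose and 1 fell at 24 HPI. Eif2ak3, the kinase PERK of the endoplasmic reticulum, went from 51.4 ± 3.96 CPM in control to 80.3 ± 5.03 at 8 HPI, a log2 fold change of 0.64 ± 0.08 (adjusted p 1.60e-05 in edgeR's test), and had 0.29 at 16 HPI (adjusted p 0.00773). Without the block its adjusted p was 0.00784 at 8 HPI, where no other gene of the list passed, and 0.106 at 16 HPI. Impact, which restrains another of the kinases and was named after its values were seen, had 0.46 at 8 HPI.

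The feedback arm acts on eIF2 itself. Of the 5 genes of the eIF2 phosphatase and of translation feedback, 3 rose at 8 HPI and 3 at 16 HPI, and at 24 HPI 1 rose and 1 fell. Ppp1r15a, known as Gadd34, recruits the phosphatase that takes the phosphate off eIF2. It had 0.89 ± 0.12 at 8 HPI (adjusted p 0.000119), 1.39 ± 0.12 at 16 HPI (adjusted p 1.34e-07) and 0.38 ± 0.12 at 24 HPI (adjusted p 0.0418). Without the block its adjusted p was 0.371, 0.0193 and 0.714 at these times, and the DESeq2 Wald test gave 0.113 at 24 HPI.

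Of the 8 bZIP partners of Atf4, 4 rose at 8 HPI and 4 at 16 HPI, when 1 fell, and at 24 HPI 1 rose and 2 fell. Atf3, an injury-induced factor of sensory neurons, went from 13.53 ± 5.98 CPM in control to 63.8 ± 2.54 at 8 HPI and 120 ± 9.54 at 16 HPI. Its change of 3.16 ± 0.21 on the log2 scale at 16 HPI was larger than that of any of the 10 genes at any time, and at 24 HPI it was 1.19. Cebpd rose to 1.64 ± 0.12 CPM at 16 HPI from 0.66 ± 0.30 in control, a log2 fold change of 1.25 ± 0.34 (adjusted p 0.0110). Without the block Atf3 passed at 8 and 16 HPI (adjusted p 0.00411 and 7.57e-05) but not at 24 HPI (0.0844), and Cebpd did not at 16 HPI (0.0953).

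The metabolic lists were read beside Asns, Psat1 and Phgdh. Of 8 further serine, glycine and one-carbon genes 3 rose at 8 HPI, 1 rose and 1 fell at 16 HPI, and 1 fell at 24 HPI. The DESeq2 Wald test gave 1 riser at 8 HPI and none at 16 HPI, and without the block none of these 8 passed at 8, 16 or 24 HPI. The one that fell was Aldh1l1, a folate enzyme that is also an astroglial marker, with -0.73 ± 0.14 at 16 HPI and -0.51 ± 0.13 at 24 HPI (adjusted p 0.314 and 0.638 without the block). Of 7 tested genes of proline, cysteine and transamination 3 rose at 8 HPI, with Bcat1 at 0.31 ± 0.08 (adjusted p 0.0203, and 0.625 without the block), none passed at 16 HPI and 1 fell at 24 HPI. At 16 HPI none of these 7 had an unadjusted p under 0.05 and the DESeq2 Wald test called none.

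Amino acid transporters passed the test against control at 24 HPI and downward. None of the 9 tested passed at 8 or 16 HPI in either tool. At an unadjusted p under 0.05 in edgeR's test there were 3 and 2, beside 22% and 33.6% of all genes tested. At 24 HPI 7 of 9 fell, where 9.03% of all genes tested did, with a list median of -0.28 on the log2 scale, and the DESeq2 Wald test also gave 7. Slc7a11, the cystine importer, stood at 126 ± 41.1 CPM in control and 94.1 ± 26.7 at 24 HPI, a change of -0.43 ± 0.06 (adjusted p 0.000100 in edgeR's test) that was lower in 3 of 3 replicates. Without the block 1 transporter fell, and Slc7a11 had an adjusted p of 0.671.

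Of the 13 genes for aminoacyl-tRNA synthetases and tRNA export, 1 rose at 8 HPI, 3 rose at 16 HPI, and 1 rose and 2 fell at 24 HPI. Iars fell by -0.23 ± 0.05 at 24 HPI (adjusted p 0.00191, and 0.0764 without the block), with no overlap with control. Of 14 tested further targets of Atf4 or Ddit3, 6 rose at 8 HPI, 8 rose at 16 HPI, and 3 rose and 2 fell at 24 HPI. Of these targets, 0 rose at 8 HPI, 2 at 16 HPI and 1 at 24 HPI without the block, and none fell. Bcl2l11, which encodes the death factor Bim, went from 2.82 ± 0.88 CPM in control to 6.03 ± 1.01 at 8 HPI, a log2 fold change of 1.09 ± 0.19 (adjusted p 0.00149, and 0.0745 without the block).

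In the other arms of the unfolded protein response, those of Xbp1 and Atf6, 5 of 19 genes rose at 8 HPI, 5 rose and 5 fell at 16 HPI, and 6 fell at 24 HPI. Of these genes, 2 rose at 8 HPI, 2 at 16 HPI and 0 at 24 HPI without the block, and none fell. Dnajb9, a luminal chaperone, had 0.37 ± 0.08 at 8 HPI and 0.71 ± 0.08 at 16 HPI (adjusted p 1.65e-06), and without the block it passed at 16 HPI (0.000382) but not at 8 HPI (0.118). Of 7 mitochondrial chaperones and proteases 1 rose at 8 HPI, 2 rose at 16 HPI and none passed at 24 HPI, when 1 had an unadjusted p under 0.05 and the DESeq2 Wald test called none. Lonp1, the matrix protease, had 0.20 ± 0.07 at 16 HPI (adjusted p 0.0359, and 0.780 without the block).

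Paralogs of the 10 genes were read because they can share regulation or reads. Of 5 tested, 2 rose at 8 HPI and 1 at 16 HPI. Trib1, a relative of Trib3, rose from 2.80 ± 0.63 CPM to 5.33 ± 0.88 at 8 HPI, a log2 fold change of 0.95 ± 0.17 (adjusted p 0.00145, and 0.0636 without the block), with no overlap between the groups, while Trib3 was just above the threshold.

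**Figure D3:**
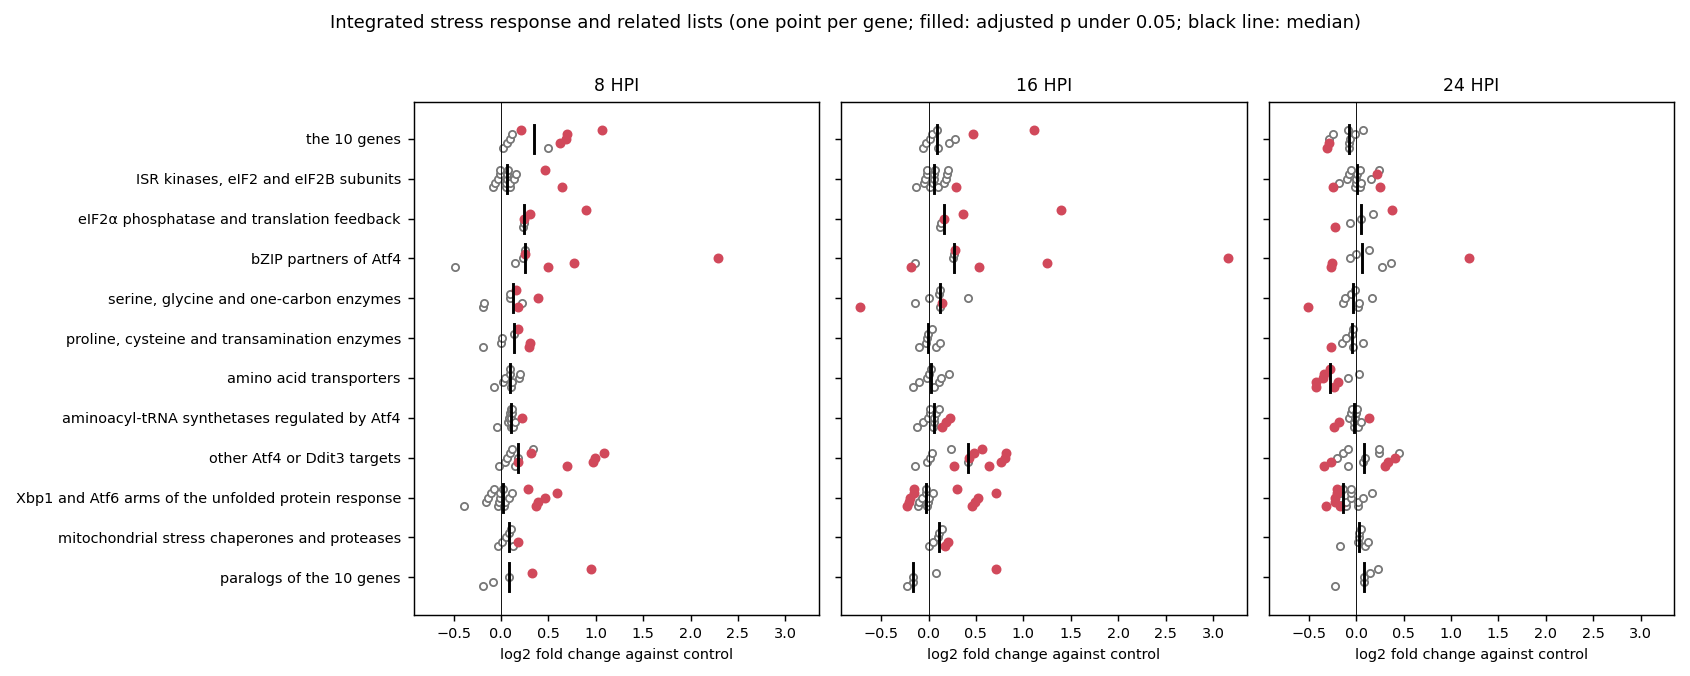
Log2 fold change against control (horizontal axis) at 8, 16 and 24 HPI for the 10 genes and 11 related lists (rows), 1 point per tested gene, filled where the adjusted p was under 0.05, with the list median as a black line. At 24 HPI 7 of 9 amino acid transporters lie to the left, and Atf3 lies furthest to the right at 8, 16 and 24 HPI.

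The shapes of the time courses were set side by side as Pearson correlations over the 18 libraries, in log2 CPM with the effect of the replicate number removed. These are descriptions, since all values come from the same libraries with their shared normalization and time points. Of the 45 pairs of members the highest were Ddit3 with Sesn2 (r = 0.911), Chac1 with Ddit4 (0.909) and Atf4 with Psat1 (0.869). Asns had 0.00 with Trib3 and -0.19 with Atf5. Atf4 had 0.54 with Ddit3 and 0.81 with Chac1.

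**Figure D4:**
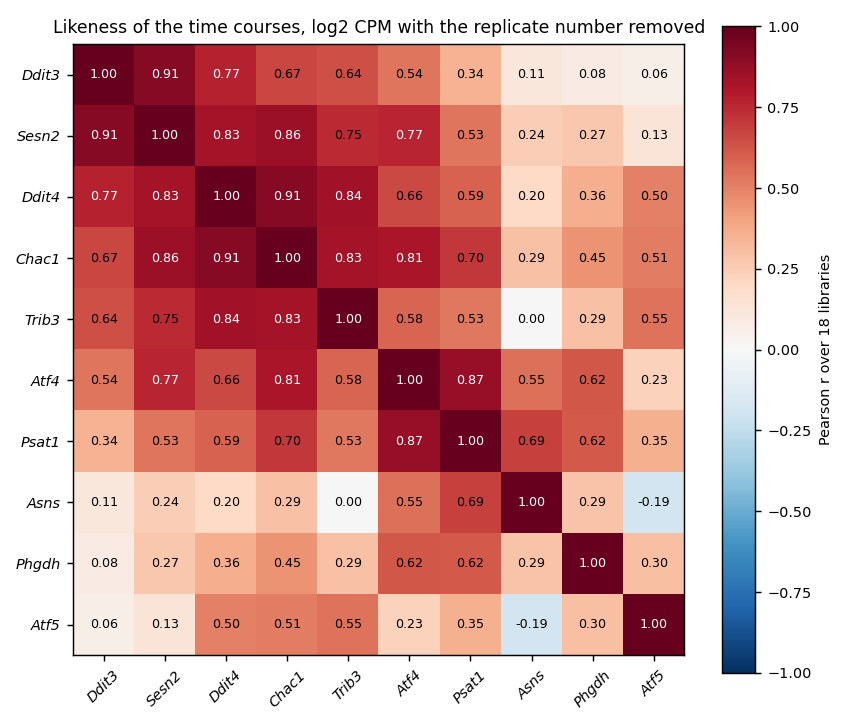
Pearson r between the time courses of the 10 genes (rows and columns) over 18 libraries, in log2 CPM with the effect of the replicate number removed. Ddit3, Sesn2, Ddit4, Chac1 and Trib3 have r between 0.64 and 0.91 with each other, and Asns has r between -0.19 and 0.69 with the other 9.

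Among 8647 other protein-coding genes with a mean over 10 CPM, the 3 with the highest r were named for each of the 5 members that passed against control. For Ddit3 they were Hspa5, which encodes the chaperone BiP, at 0.976, Arid5a at 0.974 and Stk40 at 0.950. For Sesn2 they were Gadd45a at 0.979, Cass4 at 0.978 and Hmox1, heme oxygenase, at 0.969. The log2 fold changes at 8 and 16 HPI were 0.46 and 0.52 for Hspa5, and 0.99 and 0.77 for Gadd45a.

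For Chac1 they were Herpud1, of the degradation of proteins from the endoplasmic reticulum, at 0.957, Kdm4a at 0.935 and Sec14l1 at 0.927. Herpud1 had 0.60 at 8 HPI, 0.01 at 16 HPI and -0.32 at 24 HPI, beside 0.62, 0.10 and -0.29 for Chac1. For Ddit4 they were Zfand2b at 0.925, Dnajb2 at 0.889 and Tbc1d31 at 0.886. For Atf4 they were Aldh18a1, which makes the precursor of proline, at 0.927, the neutral amino acid transporter Slc1a4 at 0.924 and Trim66 at 0.905. Aldh18a1 and Slc1a4 had -0.26 and -0.35 at 24 HPI, beside -0.30 for Atf4.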

How the data were processed

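The authors deposited raw read counts per gene for each library. Per the study's methods, reads were trimmed with cutadapt, aligned with STAR to mm10 and counted with featureCounts on GENCODE annotation; the submitters' processing notes name HTSeq, whose entry names close each table. RNA was depleted of rRNA and made into cDNA with the SMARTer kit. Identifiers were matched to GENCODE vM21 on GRCm38 (47224 of 47643), which gave symbols, positions and exon lengths.

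Testing, in R 4.3.3 with edgeR 4.0.16, took the genes that passed 1 CPM in 3 or more libraries: TMM (factors 0.914 to 1.09), then the quasi-likelihood test in 1 model with terms for time point and replicate number, two-sided, with Benjamini-Hochberg adjustment over 13771 genes at 0.05. "Rose" and "fell" mean past this test. Each time point was compared with control, and 8 with 3, 16 with 8 and 24 with 16 HPI. The replicate numbers paired the libraries: in log2 CPM, deviations from the group means correlated between 0.484 and 0.765 in all 45 pairs with the same number. Between libraries of other numbers the correlation was at most -0.04. Deviations within a group cancel out, so these negative values follow from the positive ones and are no separate evidence. CPM and RPKM were taken over counts on genes, and log2 CPM used a prior count of 2. The method was tested on simulated data that held no replicate effect, so the simulation did not test the replicate block.

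The members, lists and rules were chosen with earlier results of these data known. Named besides the 10 were list genes past the test and over 2-fold against control, the largest change of each list at 8, 16 or 24 HPI, and the 3 genes most like each member that passed. Impact, Mars, Nup62, S100b, Vim, Nes and Mag were named after their values were seen. Alternatives were DESeq2 1.42.0 size factors, upper-quartile factors, the DESeq2 Wald test, a filter of 10 counts in total or of 1 CPM in each of the 18 libraries, no replicate block, the 2 groups alone, residual rRNA and mitochondrial genes left out, and each library left out in turn. Precision is limited by 3 replicates per time point. Promoter windows came from RefSeq.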

Additional observations from a re-analysis of the deposited data

Results flagged for a closer look

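Levels that differed between neighbouring time points after injury, by edgeR's quasi-likelihood test of the step itself with Benjamini-Hochberg adjustment, were as follows. From 3 to 8 HPI the log2 steps were 0.85 for Ddit3, 0.67 for Sesn2 and 0.45 for Chac1, each higher in 3 of 3 replicates. From 8 to 16 HPI they were -0.53 for Chac1 and -0.42 for Ddit4. From 16 to 24 HPI they were -1.04 for Ddit3, -0.71 for Sesn2, -0.50 for Trib3, -0.39 for Atf4, -0.38 for Chac1 and -0.35 for Ddit4. All 8 falls were lower in 3 of 3 replicates. With 3 libraries a time point, single libraries were not tested as outliers.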

How the results depend on the processing

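The calls rest on the replicate block. Without the replicate block the number of members past the test was 0 in place of 5 at 8 HPI, 1 in place of 2 at 16 HPI and 0 in place of 2 at 24 HPI. It was also 0 for the steps from 3 to 8, 8 to 16 and 16 to 24 HPI, and 0 members passed with a 2-fold change at 8 HPI. With the 2 compared groups alone, 4 members in place of 2 changed from 8 to 16 HPI. Leaving out each library in turn gave 1 to 4 members for that step, and 0 to 1 members past 2-fold at 16 HPI. No value turned its direction under any alternative. Values that passed in neither of the 2 fits compared carry no direction and were counted as unchanged. Over all values and alternatives, 1243 kept their side of the threshold, 20 gained and 46 lost a call, and 4 moved without a test: over the longest transcript Asns had 237, Psat1 159 and Ddit3 57.7 RPKM, and 6 of the 15 genes most like a member were also found with the replicate effect left in. Calls with the block that held under all 13 alternatives that kept it were those of Ddit3, Chac1, Sesn2 and Ddit4 at 8 HPI, Ddit3 and Sesn2 at 16 HPI, Atf4 and Chac1 at 24 HPI, and the steps of Ddit3, Chac1 and Sesn2 from 3 to 8 HPI, of Chac1 from 8 to 16 HPI and of Atf4, Ddit3, Chac1 and Sesn2 from 16 to 24 HPI. The depth of 9478891 to 23082327 counts on genes and 3 replicates limit what can be seen for Trib3, the lowest of the 10 genes.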
